A study of Zea mays with 10 samples.

Results

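In vegetative apices of the maize mutant *leafbladeless1* (*lbl1*), 431 well-expressed genes were at or below 0.5 times their RPKM in the wild type B73. These genes were chosen by the values themselves: at least 20 RPKM in B73, at least 1 RPKM in *lbl1*, a ratio of *lbl1* to B73 of 0.5 or less, no gene name in the deposited table, and a locus outside chromosome 6, where *lbl1* lies. GRMZM2G082055 was left out beforehand. Apart from the ratio, 8767 of the 109874 genes listed in the table met these criteria and are called eligible here, so the halved genes were 4.92% of the eligible genes. Another 219 eligible genes (2.50%) were at 2 times their B73 level or more. With the minimum of 20 RPKM placed on *lbl1* and that of 1 RPKM on B73, the doubled genes were 562 of 8546 (6.58%), so the balance of the directions depends on where the minimum lies. The selection used both values of each gene, and all levels and ratios below are therefore descriptions without a test.

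*lbl1* encodes the maize SGS3 protein, which acts with an RNA-dependent RNA polymerase to make the double-stranded precursors of trans-acting siRNAs. Among these, tasiR-ARFs restrict *ARF3* transcripts, which specify the abaxial (lower) side of the leaf. The vegetative apex contains the shoot apical meristem, a pool of stem cells held at a constant size by receptor signalling, and the young leaves it initiates, in which transcription factor families control cell proliferation, epidermal identity and the juvenile to adult transition.

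The samples were shoot apices of seedlings 2 weeks old, each with its meristem and at most 5 leaf primordia. The wild type was B73, the inbred line of the maize reference genome, and the mutant carried *lbl1-rgd1*, an allele crossed into B73 at least 3 times and kept in segregating families. Transcripts were sequenced from 2 samples per genotype, and the table gives 1 RPKM value per genotype, computed over both. RPKM is the number of reads scaled to transcript length and to the mapped reads of the library. With 1 value per genotype there is no replicate spread, no SD and no p-value for any gene below, and the depth behind each value is not known from the table. Fewer cells of a type and less RNA per cell cannot be told apart in such tissue samples.

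Across the 24760 genes that reached 1 RPKM in each genotype, the log2 ratio of *lbl1* to B73 had a median of -0.10. Unless stated otherwise, the log2 ratio of a gene is set against this median, and 325 of the 431 halved genes stayed within the ratio limit of 0.5 after that scaling. As for the mutated gene, GRMZM2G020187 had 301 RPKM in B73 and 226 RPKM in *lbl1*. The meristem gene *kn1* (*knotted1*) was at 69.3 RPKM in B73 and 123 RPKM in *lbl1*, and the leaf primordium gene *rs2* (*rough sheath2*) was at 39.0 RPKM in both. Genes of mature photosynthetic leaves differed among themselves. The Rubisco small subunit gene *ssu1* was at 3.84 RPKM in B73 and 4.17 RPKM in *lbl1*, and *me3* (NADP-malic enzyme) at 7.09 and 14.9 RPKM. Of the 2 genes matched to *ppdk1* (pyruvate, orthophosphate dikinase), GRMZM2G097457 was at 1.35 and 6.32 RPKM, and GRMZM2G306345 on chromosome 6 at 0.44 and 62.2 RPKM. Of the 2 matched to the symbol *pep1* (phosphoenolpyruvate carboxylase), GRMZM2G083841 (chromosome 9, 61296279 to 61301716) was listed at 0 in both genotypes. GRMZM5G899080, at a much shorter locus (chromosome 2, 6582610 to 6583458), was at 104 and 70.5 RPKM. It was matched by symbol only, and whether it encodes this enzyme was not tested. The 5 zein (seed storage protein) genes found were at most at 1.89 RPKM. The root hair genes *rth1* and *rth3* were above 20 RPKM in both genotypes. The root gene *rtcs1* was at 0.24 RPKM in B73 and 0.35 RPKM in *lbl1*, and the pollen profilin gene *pro1* at 0.51 and 0.61 RPKM. The part of other tissues in the differences was not tested.

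**Figure D1:**
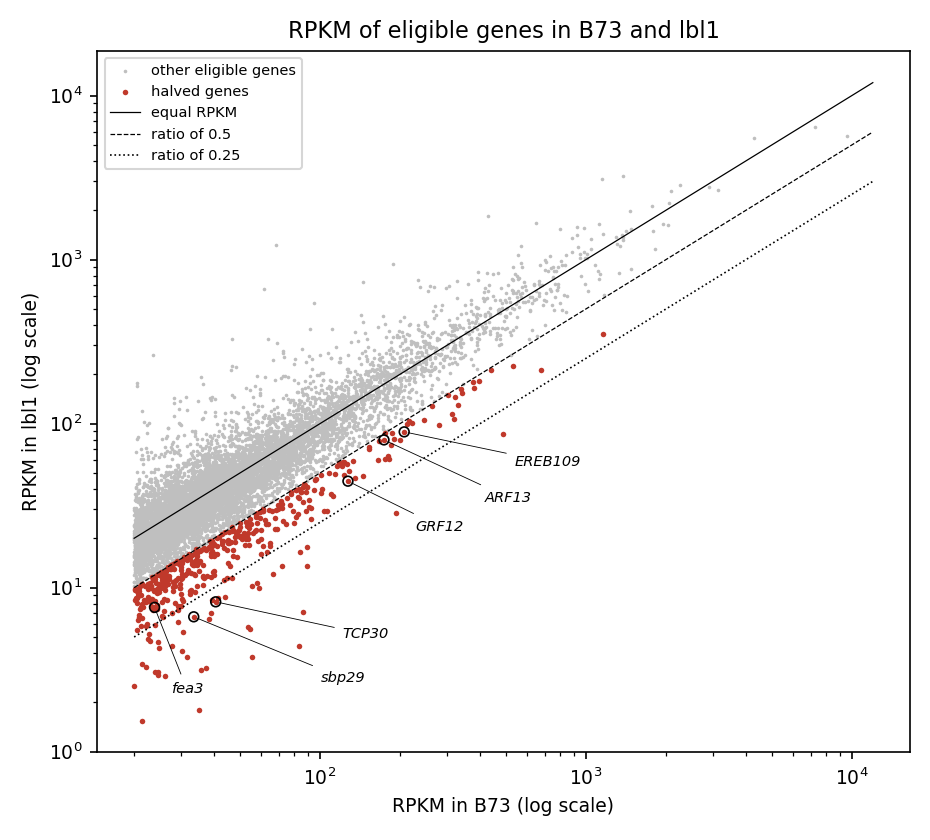
RPKM in *lbl1* (y axis) against RPKM in B73 (x axis), both on log scales, for the 8767 eligible genes, with 1 point per gene and the 431 halved genes in red. The lines mark equal RPKM and ratios of 0.5 and 0.25; the red points lie at or below the ratio of 0.5 because they were selected so, most of them close to it, and 6 named genes are circled.

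Most halved genes were moderately expressed and close to the limit. Their B73 levels ran from 20.02 to 1160 RPKM with a median of 37.7 RPKM, beside a median of 41.1 RPKM for the other eligible genes. Their *lbl1* levels ran from 1.55 to 353 RPKM with a median of 14.7 RPKM. The median ratio was 0.412, and 143 of the 431 genes had a ratio above 0.45, whereas 111 were at least 3-fold lower, 45 at least 4-fold lower and 14 at least 8-fold lower in *lbl1*. The halved share changed little with the B73 level up to 500 RPKM. It was 5.12% of the 5308 eligible genes between 20 and 50 RPKM, 4.99% between 50 and 100 RPKM, 4% between 100 and 200 RPKM and 4.93% between 200 and 500 RPKM. Above 500 RPKM it was 1.90%, or 3 of 158 genes.

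Names from the RefSeq gene table could be given to 33 of the 431 genes. Of the 655 eligible genes with such a name, 33 (5.04%) were halved and 7 (1.07%) were doubled, next to 4.92% and 2.50% of all eligible genes. The named halved genes held 14 transcription factors, 3 receptors or kinases, 4 enzymes of lipid or amino acid metabolism and 2 chromatin factors. A further 5 had other known products, and 5 carried a symbol only. These groups, and the gene families below, were drawn up after the values were seen, so their counts describe the halved genes and are no evidence of a theme. In the 13 transcription factor families followed below by symbol, 81 genes were eligible, of which 13 were halved and 3 doubled.

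Of the growth-regulating factor (GRF) genes, 3 were among the halved genes. GRFs are plant transcription factors that promote cell proliferation in young leaves, in many species under the control of miR396. *GRF12* (GRMZM2G119359, chromosome 9, 25709471 to 25712485) was at 127 RPKM in B73 and 44.6 RPKM in *lbl1*, 2.86-fold lower and a log2 ratio of -1.41 relative to the median gene. *GRF9* (GRMZM2G124566, chromosome 4) was at 48.1 and 19.0 RPKM, 2.53-fold lower. *GRF4* (GRMZM2G004619, chromosome 2) was at 87.3 and 42.6 RPKM, close to the limit of 0.5. It was above that limit once scaled to the median gene, with a log2 ratio of -0.93.

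The other *GRF* genes were mostly lower as well. The table lists 16 genes with a *GRF* symbol, after leaving out 14-3-3 genes that share the name, and all 16 were above 1 RPKM in both genotypes. In *lbl1*, 15 of the 16 had the lower RPKM, 14 of them also relative to the median gene, and 7 had a ratio of 0.5 or less. Of all 24760 genes at 1 RPKM or more in both genotypes, 57.4% were lower in *lbl1* before scaling. Beyond the 3 halved genes, these were *GRF3* (88.4 and 38.4 RPKM in B73 and *lbl1*) and *GRF6* (52.7 and 24.9 RPKM), which carry names in the table, *GRF14* on chromosome 6 (45.9 and 18.8 RPKM), and a second gene called *GRF9*, GRMZM5G893117, at 11.4 and 4.50 RPKM. *GRF5* (48.0 and 24.4 RPKM) and *GRF2* (91.5 and 47.1 RPKM) lay just above the limit. *GRF10* was at 55.2 and 52.0 RPKM, and *GRF11*, at 13.4 and 15.7 RPKM, was the exception. The median log2 ratio of the 16 genes was -0.87 relative to the median gene, and -0.57 before scaling for the 13 that are not among the halved genes. Over all genes at 1 RPKM or more in both genotypes, 6.79% had a ratio of 0.5 or less and 6.36% a ratio of 2 or more.

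The HD-ZIP IV family of homeodomain proteins, named *outer cell layer* (*OCL*) in maize after their expression in the epidermis, gave 2 of the halved genes. *OCL6* (GRMZM2G001289, chromosome 2, 1 gene at its locus) was at 35.5 RPKM in B73 and 16.8 RPKM in *lbl1*. *OCL8* (GRMZM2G122897, chromosome 10, 143385947 to 143390709) was at nearly the same levels, 35.6 and 16.9 RPKM. Relative to the median gene both were slightly above the limit, with log2 ratios of -0.98 and -0.97. All 7 genes of the family found in the table were lower in *lbl1* under both scalings, with ratios from 0.393 (*OCL14*, 13.6 and 5.34 RPKM) to 0.680 (*ocl1*, 41.4 and 28.2 RPKM). The 2 halved genes among them are low by the selection itself. The other 5 were all lower, next to 57.4% of all genes at 1 RPKM or more in both genotypes before scaling.

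**Figure D2:**
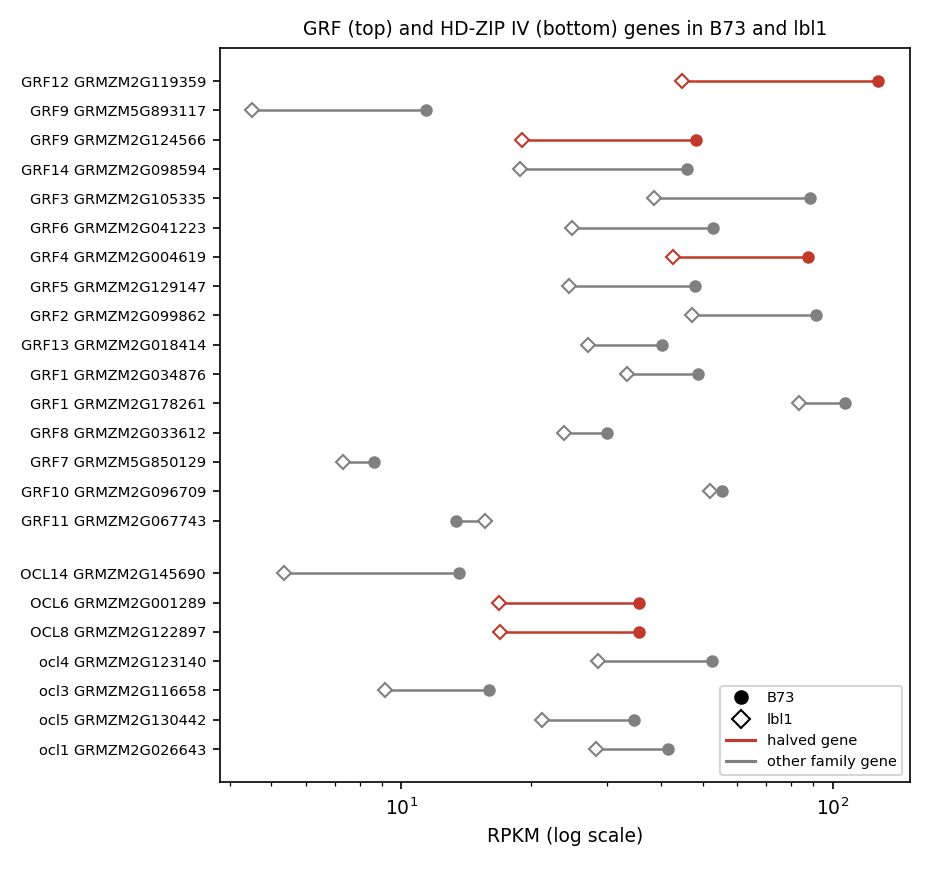
RPKM (x axis, log scale) of the 16 *GRF* and 7 HD-ZIP IV genes, 1 line per gene from its B73 value (filled circle) to its *lbl1* value (open diamond), with the halved genes in red. Every symbol moves to the left from B73 to *lbl1* except *GRF11*, which goes from 13.4 to 15.7 RPKM.

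The 2 named genes with the lowest ratios belong to the SBP and TCP families. *sbp29* (GRMZM2G067624, chromosome 7), of the SQUAMOSA promoter-binding proteins that control phase change and branching, was at 33.5 RPKM in B73 and 6.64 RPKM in *lbl1*, 5.05-fold lower, at a locus shared with a second annotated gene. *TCP30* (GRMZM2G166946, chromosome 3), of a family of plant transcription factors that regulate cell proliferation in leaves and branching, was at 40.5 and 8.19 RPKM, 4.95-fold lower. Of 18 *SBP* genes at 1 RPKM or more in both genotypes, 14 were lower in *lbl1* (13 relative to the median gene), next to 57.4% of all genes, and 4 were at or below the ratio of 0.5. *sbp21* was at 10.6 and 1.52 RPKM, and *ub2*, an *SBP* gene known for its effect on tassel branch and kernel row number, was at 19.3 and 7.94 RPKM, just under the B73 minimum. The 7 *TCP* genes had no common direction, with 4 lower and 3 higher in *lbl1* and *TCP7* at 19.1 and 30.9 RPKM.

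The other named transcription factor genes were spread over further families. *EREB109*, of the AP2/ERF family, was at 207 RPKM in B73 and 89.1 RPKM in *lbl1*. *ARF13*, named as an auxin response factor, was at 174 and 79.6 RPKM, while the 16 genes named *ARF* at 1 RPKM or more, without a second *arf1* of uncertain family, had a median log2 ratio of 0.10 relative to the median gene. *bHLH23* was at 57.4 and 22.5 RPKM, beside a median of -0.02 for 31 *bHLH* genes on the same scale. The homeobox genes *HB2* (30.3 and 12.1 RPKM) and *HB112* (30.0 and 13.4 RPKM), the MYB-related gene *MYBR95* (27.6 and 13.4 RPKM) and the MADS-box gene *ZAGL1* (41.8 and 20.4 RPKM) complete the group. Of 14 homeobox genes named *HB*, 9 were lower in *lbl1* under both scalings, a share close to the 57.4% of all genes. Of the families shown in the plot of family ratios, the WRKY, bZIP, YABBY and TIFY genes included none of the halved genes. They had only 4, 6, 5 and 9 eligible genes, and 4.92% of all eligible genes were halved. The absence is therefore no result about these families.

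**Figure D3:**
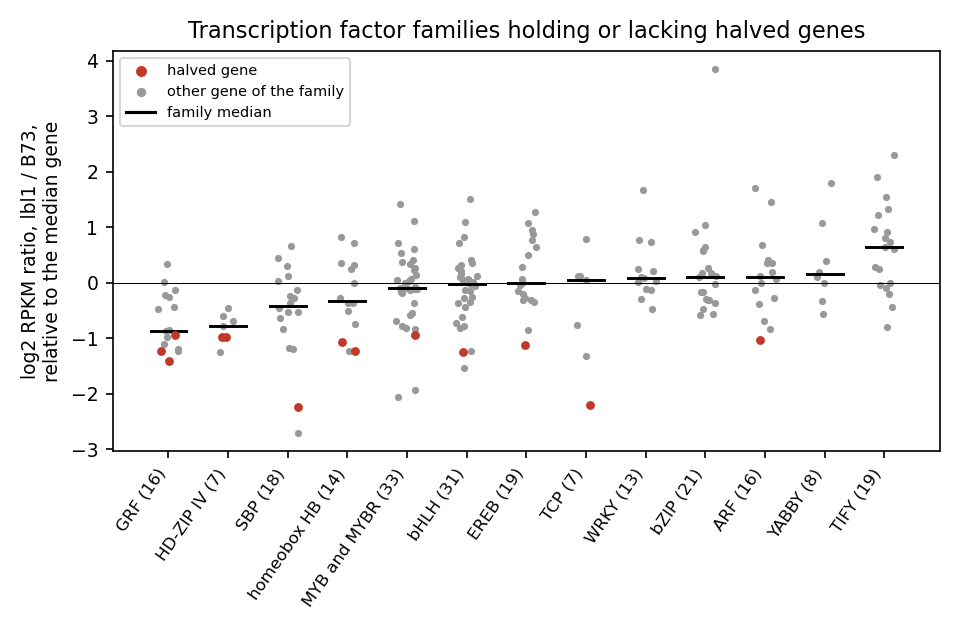
Log2 RPKM ratio of *lbl1* to B73 relative to the median gene (y axis) for genes at 1 RPKM or more in both genotypes in 13 transcription factor families (x axis, number of genes in parentheses), with 1 point per gene, the halved genes in red and a bar at the family median. The bars lie lowest for GRF (-0.87) and HD-ZIP IV (-0.77), near 0 for bHLH (-0.02), and highest for TIFY (0.64). The bars include the halved genes, which are low by the selection itself. Without these genes and before scaling, the median was -0.57 for GRF and -0.80 for HD-ZIP IV.

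Meristem size in maize depends on receptors that limit stem cell proliferation, and *fea3* (*fasciated ear3*), which encodes a leucine-rich repeat receptor protein of this kind, was among the halved genes. *fea3* (GRMZM2G166524, chromosome 3, 29094519 to 29097953, no other gene at the locus) was at 23.9 RPKM in B73 and 7.58 RPKM in *lbl1*, 3.15-fold lower. Other genes of meristem size control did not share 1 direction. The receptor kinase gene *td1* (*thick tassel dwarf1*) was at 5.54 and 2.53 RPKM, too low to be eligible. The receptor-like gene *fea2* was at 20.3 and 15.8 RPKM, the G-protein alpha subunit gene *ct2* (*compact plant2*) at 64.2 and 68.0 RPKM, and the bZIP transcription factor gene *fea4* at 25.7 and 27.3 RPKM. Of the kinases, *SnRK2.1*, of a family active in osmotic stress and abscisic acid signalling, was at 21.0 and 7.39 RPKM. *PPCK4*, a phosphoenolpyruvate carboxylase kinase gene, was at 21.8 and 8.43 RPKM.

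Genes of the leaf surface and of metabolism formed a smaller group. *AD1* (*adherent1*, GRMZM2G167438, chromosome 1), a 3-ketoacyl-CoA synthase needed for cuticular wax and for keeping young leaves from fusing, was at 41.1 RPKM in B73 and 16.1 RPKM in *lbl1*, 2.56-fold lower. *fad2*, a fatty acid desaturase gene at a locus with 3 annotated genes, was at 28.0 and 10.8 RPKM. *GAD* (glutamate decarboxylase) was at 30.2 and 14.6 RPKM, and *AKHSDH1*, a bifunctional enzyme of aspartate-family amino acid synthesis, at 21.0 and 10.3 RPKM. *AKHSDH1* is 1 of 3 gene models that RefSeq joins into a single gene, and the other models of it had ratios of 0.547 and 0.936.

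Of the remaining named genes, *PMP3*, a small membrane protein gene, was at 145 RPKM in B73 and 47.9 RPKM in *lbl1*. *mlo5*, of a family of membrane proteins first known from powdery mildew susceptibility in barley, was at 32.7 and 12.3 RPKM. The chaperonin gene *CPN60I* was at 121 and 54.8 RPKM and an actin gene (*Actin-7*, GRMZM2G006765) at 57.7 and 26.8 RPKM. The 2 chromatin genes, *chr124* and *nfc103*, were at 24.1 and 10.7 RPKM and at 23.6 and 11.3 RPKM. For *chr124*, RefSeq joins further gene models into the same gene. These had ratios of 1.11 (GRMZM2G049766, 29.1 and 32.3 RPKM), 0.567 and 0.664. *BURP10*, of a plant family named for its conserved BURP domain, was at 83.0 and 35.4 RPKM. *prp2*, *RNRS3*, *m26*, *ROA4* and *hap2* had ratios between 0.416 and 0.486.

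The genes with the lowest ratios were, in contrast to those named above, mostly models without a RefSeq counterpart. Of the 12 lowest, 11 had no RefSeq match and 9 shared their locus with another annotated gene. GRMZM2G178271 (chromosome 9, 147486941 to 147492124) was lowest, with 34.9 RPKM in B73 and 1.78 RPKM in *lbl1*, 19.6-fold lower. AC194650.1_FG011 (chromosome 1, 280506093 to 280506316), a model of only 224 bp, followed with 83.2 and 4.42 RPKM, 18.8-fold lower. GRMZM2G180285 was at 55.5 and 3.78 RPKM, GRMZM5G891036 at 21.4 and 1.55 RPKM, and GRMZM5G867945 at 86.3 and 7.07 RPKM. GRMZM2G104781, GRMZM5G834521, GRMZM5G869874, GRMZM5G886200, GRMZM5G893219 and GRMZM5G863050 were between 8.38-fold and 11.5-fold lower, from B73 levels of 24.6 to 53.4 RPKM.

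The only 1 of these 12 with a RefSeq match was GRMZM2G531230 (chromosome 2, 5071039 to 5071551), at 54.6 RPKM in B73 and 5.57 RPKM in *lbl1*. Its neighbour GRMZM2G082032, 1130 bp away, was at 38.9 and 6.96 RPKM, and RefSeq assigns both models to a single gene, LOC103645841. The 2 values thus describe separate parts of 1 gene, at 9.81-fold and 5.59-fold lower.

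At the other end of expression, GRMZM2G389965 (chromosome 2, 54631460 to 54632176) had the highest B73 level, 1160 RPKM against 353 RPKM in *lbl1*. It shares its locus with GRMZM5G864735, which was higher in *lbl1* (321 and 403 RPKM), and the summed locus had a ratio of 0.511. GRMZM2G112210 followed with 680 and 211 RPKM, and GRMZM5G846674, at a locus with 3 annotated genes, with 530 and 226 RPKM. Cuffdiff marked its own test as failed for these last 2 genes, as for 17 of the 431 (3.94%). GRMZM2G105587 (chromosome 8, 5997392 to 5998182) combined a high level with a low ratio, at 488 and 86.5 RPKM, 5.64-fold lower. The other genes among the 8 highest, GRMZM5G850455, GRMZM2G069911, GRMZM2G149556 and GRMZM2G552868, had B73 levels from 376 to 441 RPKM and ratios from 0.432 to 0.480.

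The limit of 0.5 separated genes with nearly the same values. Just inside it were GRMZM2G073235 (38.6 RPKM in B73 and 19.3 RPKM in *lbl1*), GRMZM2G374475, GRMZM5G899984, GRMZM2G138131, GRMZM2G166026 and GRMZM2G011463, with ratios from 0.498 up to the limit. Just outside were GRMZM2G047813 (523 and 262 RPKM), GRMZM2G109526 and GRMZM5G886905, with ratios of 0.501. At the B73 minimum, GRMZM2G042181 was inside at 20.02 and 2.50 RPKM, and GRMZM2G035805 outside at 19.98 and 9.30 RPKM.

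Annotation, which the selection did not use except for the table's gene names, differed along the ratio. A RefSeq gene was matched for 181 of the 431 halved genes (42%), for 72.3% of the 8117 eligible genes between the 2 limits, and for 36.1% of the 219 doubled genes. The locus was shared with another annotated gene for 37.6%, 26.6% and 53.0% of these 3 sets. Loci under 300 bp made up 8.82% of the halved genes, 1.43% of the genes between the limits and 10% of the doubled genes. The median locus of the halved genes was 2180 bp long, and that of the other eligible genes 4363 bp. Within the halved genes, the matched share was 20% at ratios under 0.25 and 48.7% between 0.40 and 0.50, and the shared-locus share was 64.4% and 28.6%. Halved and doubled genes thus had in common that short, shared and unmatched models were frequent among them.

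**Figure D4:**
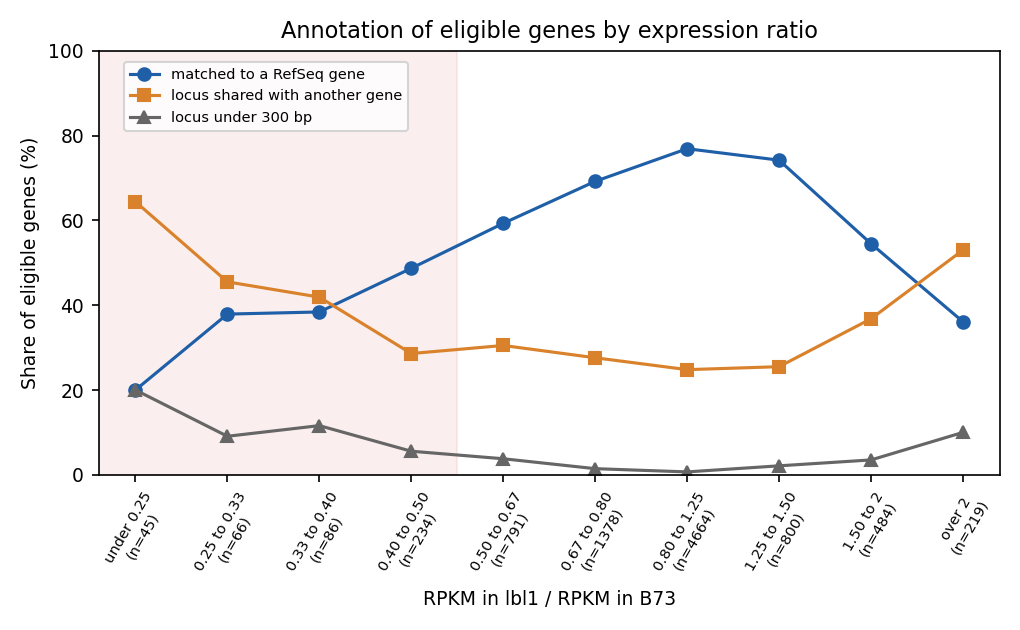
Share of eligible genes (y axis, percent) with a RefSeq match, with a locus shared with another gene and with a locus under 300 bp, in bins of the RPKM ratio of *lbl1* to B73 (x axis, number of genes in parentheses, the bins of the halved genes shaded). The matched share is 20% in the lowest bin, 76.9% in the bin around equal levels, and 36.1% in the highest bin.

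Among the 4684 eligible genes with a RefSeq match and a locus of their own, 129 (2.75%) were halved and 59 (1.26%) doubled. Among the 996 eligible genes with neither, 110 (11.0%) were halved and 96 (9.64%) doubled. All 3 *GRF* genes, both *OCL* genes, *TCP30*, *fea3* and *AD1* belong to the 129.

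For the 162 halved genes at shared loci, the table gives the same coordinates for all overlapping genes, and reads in the overlap could have been assigned to either. The counting is not stated to use strand. The overlapping gene with the highest B73 level was at 1 RPKM or more in both genotypes for 135 of the 162, and was itself at or below 0.5 for 21 and at or above 2 for 1. In 10 of these 21 cases it was another of the halved genes, low by the selection itself. Of the other 125 overlapping genes, 11 (8.8%) were at or below 0.5, and their median log2 ratio was -0.19 before scaling. For eligible genes between the limits, 9.13% of 1292 overlapping genes were at or below 0.5 and 12.8% at or above 2. Halved genes were not taken out of these 1292, so the 8.8% is not a like share. With halved genes left in, the share for the 135 was 15.6%, which includes the 10 low by the selection itself. When the RPKM of all genes at a locus were added up, the sum was still at or below 0.5 times B73 for 89 of the 162 genes and above it for 73. Counting the 269 genes with a locus of their own, 358 of the 431 were thus halved alone or as a summed locus.

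Several overlapping genes have known developmental roles, and these were picked out after their values were seen. GRMZM2G180285, 14.7-fold lower, lies at the locus of *GIF1* (chromosome 1, 273326551 to 273330206), which encodes the coactivator that binds GRF proteins. *GIF1* itself was at 704 RPKM in B73 and 398 RPKM in *lbl1*, a ratio of 0.565 and a log2 ratio of -0.72 relative to the median gene, and *GIF2* was at 26.2 and 30.8 RPKM. GRMZM5G875327 (64.7 and 18.6 RPKM) shares the locus of the epidermal gene *ocl4*, which was at 52.3 and 28.5 RPKM, and the summed locus had a ratio of 0.403. GRMZM5G867945 lies at the locus of the auxin carrier gene *aux1*, which was higher in *lbl1*, at 63.1 RPKM in B73 and 88.0 RPKM in *lbl1*. GRMZM2G543252, at 320 and 107 RPKM, shares a locus with a histone H3 gene at 101 and 115 RPKM. In both of these the 2 genes at the locus had opposite directions.

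**Figure D5:**
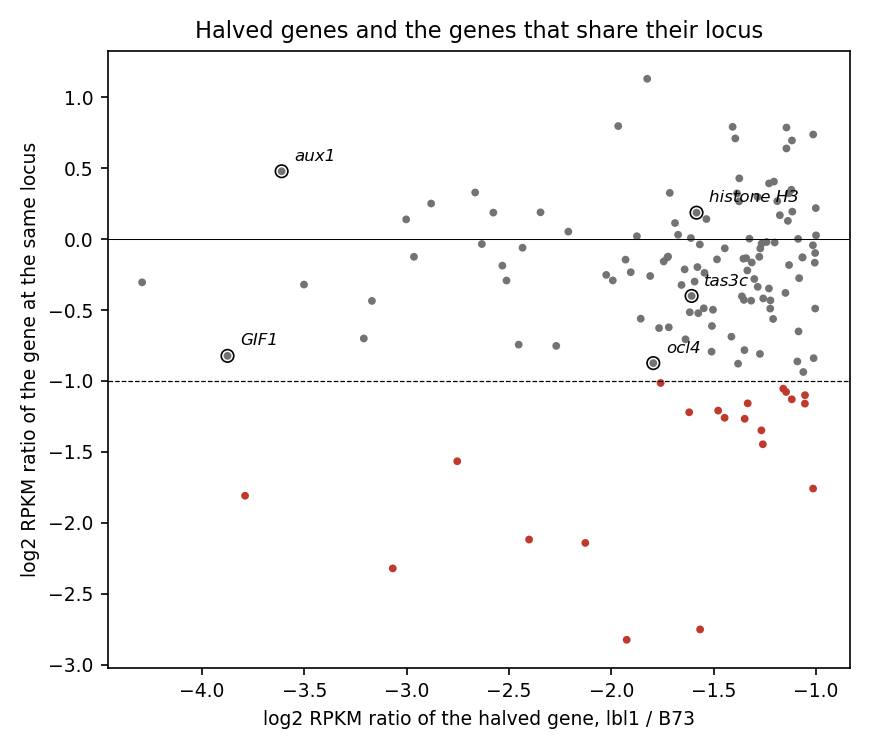
Log2 RPKM ratio of *lbl1* to B73 for 135 halved genes (x axis) and for the most highly expressed other gene at the same locus (y axis), before scaling, 1 point per halved gene. Loci where that other gene was below 1 RPKM in either genotype are not shown. The dashed line marks a ratio of 0.5; the 21 red points below it are loci where both genes were halved, and most other points, including *GIF1*, *ocl4* and *tas3c*, lie between it and equal levels or above.

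A halved gene also overlaps a source of trans-acting siRNAs. GRMZM5G833991 (chromosome 1, 51293368 to 51295043) was at 60.2 RPKM in B73 and 19.8 RPKM in *lbl1*, 3.05-fold lower. It has the same coordinates as GRMZM2G084821, the non-coding precursor *tas3c*, and RefSeq joins both into a single long non-coding RNA gene. *tas3c* as annotated in GRMZM2G084821 was at 46.5 and 35.2 RPKM, a ratio of 0.758, and the sum of both was at a ratio of 0.515.

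Models that RefSeq joins gave a further view of single genes. For 21 halved genes, at least 1 other row of the table belongs to the same RefSeq gene, and 24 such rows were at 1 RPKM or more in both genotypes. Of these 24, 4 are halved genes themselves, paired with each other in 2 RefSeq genes. Of the other 20, 12 were lower in *lbl1* (11 relative to the median gene) and 0 were at or below 0.5, with a median log2 ratio of -0.16 before scaling. *CPN60I* is an example, since GRMZM2G458208 was at 121 and 54.8 RPKM and the other model of the gene, GRMZM2G111477, at 202 and 184 RPKM, a ratio of 0.909.

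The halved genes were spread over the 9 chromosomes examined. They made up from 3.87% of the eligible genes on chromosome 8 (35 of 904) to 5.72% on chromosome 10 (35 of 612), and 85 of the 431 lay on chromosome 1. In windows of 5 Mb the highest number was 9 of 68 eligible genes, on chromosome 10 between 140000001 and 145000000, where *OCL8* lies, and 230 of 381 windows held at least 1. At separate loci within 50 kb of each other there were 14 neighbouring pairs, holding 26 of the 431 genes (6.03%), and 5 more pairs shared a locus. In 2 of the 14, RefSeq assigns both models to a single gene, LOC103645841 and LOC100275481. Of the 372 well-expressed genes within 50 kb of a halved gene, named genes included, 26 (6.99%) had a ratio of 0.5 or less. These 26 include halved genes that neighbour each other, low by the selection itself. The pairs at separate loci above also hold 26 halved genes, so the share may repeat those pairs entirely. The 4.92% of all eligible genes covers unnamed genes only.

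Neighbouring halved genes differed in level, and their ratios were alike in some cases and apart in others. On chromosome 5, GRMZM2G079352 (45.5 and 21.9 RPKM in B73 and *lbl1*), AC210609.1_FG007 (95.8 and 45.6 RPKM) and GRMZM2G475349 (25.1 and 11.9 RPKM) lay within 202209988 to 202225926, with ratios from 0.475 to 0.482. On chromosome 3, GRMZM2G469673 (72.4 and 25.7 RPKM) and GRMZM2G048335 (102 and 40.0 RPKM) were 195 bp apart. *OCL8* and GRMZM2G148483 (32.4 and 9.48 RPKM) were 3067 bp apart, at 2.11-fold and 3.42-fold lower. At 1 shared locus on chromosome 2, *prp2* was at 94.8 and 39.4 RPKM and GRMZM5G809105 at 124 and 48.5 RPKM.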

How the data were processed

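RNA from vegetative apices of B73 and *lbl1* was sequenced, with 2 libraries for B73 and 2 for *lbl1*. After trimming, reads were aligned by the authors to B73 RefGen_v2 and its annotated junctions (TopHat 1.2.0), and reads with a unique position entered Cuffdiff 1.0.3, run with a minimum alignment count of 50. The deposited table gives RPKM, 1 value per genotype computed by the authors over both samples. It also holds the authors' log2 ratio, test statistic, p-value, q-value and significance call, which were not used. The small RNA samples were not used here.

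Ratios of RPKM were computed without a pseudocount, and genes were matched to the RefSeq gene table (assembly Zm-B73-REFERENCE-NAM-5.0) by identifier for names only. Coordinates are the table's, on B73 RefGen_v2, counted from 1. They span the locus, and genes with identical coordinates were taken to share it. The selection rule was tested on simulated data. The members and gene lists were chosen with earlier results of these data known. Named genes were the 12 lowest ratios, the 8 highest B73 levels, the 6 genes nearest inside the limit and 3 outside, genes within 50 kb of each other (as examples), and, chosen after their values were seen, the genes with a symbol, their families and overlapping genes. Function groups by description words, promoter motifs and protein sequences were planned, but no descriptions or sequences were used here, and the groups follow gene symbols instead. Alternatives for the minimum, limit, scaling, pseudocount and overlap are given in the closing section. Python 3.11.15 with numpy 2.4.6, pandas 2.3.3 and matplotlib 3.10.9 was used.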

Additional observations from a re-analysis of the deposited data

How the results depend on the processing

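No paired analysis was possible because the table gives 1 value per genotype, which also leaves no way to leave out a sample. The number of halved genes, 431, became 726 with a B73 minimum of 10 RPKM and 159 with 50 RPKM, 197 with a ratio limit of 0.4 and 1222 with 0.67, and 269 without overlapping loci. It was 325 after scaling to the median gene, 390 with a pseudocount of 1 RPKM, 414 without failed tests and 594 without a minimum in *lbl1*. The halved share of 4.92% became 5.49% (minimum of 10 RPKM), 3.71% (scaling), 4.45% (pseudocount), 6.65% (no *lbl1* minimum) and 4.25% (no overlapping loci). The 45 genes at least 4-fold lower became 84 and 15 with minima of 10 and 50 RPKM, 208 without the *lbl1* minimum and 16 without overlapping loci. The doubled share of 2.50% became 3.24% after scaling. Settings chosen after seeing the data were matched genes at unshared loci only, with 129 halved genes (2.75%) and 1.26% doubled, and a floor of 20 RPKM in *lbl1* in place of B73, with 6.58% doubled. The balance of halved to doubled genes thus depends on which genotype carries the minimum. No eligible gene lay on an unplaced sequence. Of 53 named genes, 13 were above the limit after scaling and 4 with the pseudocount. None changed direction, which the selection had fixed in advance for changes of this size. The 19 neighbouring pairs became 22 at 100 kb, and the 33 genes with a symbol became 45 with a B73 minimum of 10 RPKM.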

Other observations

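The selection leaves out genes that were nearly absent in *lbl1*. Of the unnamed genes outside chromosome 6 with at least 20 RPKM in B73, 163 were below 1 RPKM in *lbl1*, and 155 of them were listed at 0, so that no fold can be given. Their B73 levels had a median of 36.04 RPKM and reached 216 RPKM. Only 1 of the 163 matched a RefSeq gene, compared with 42% of the halved genes, and 24 shared their locus with another gene. On chromosome 6, which carries *lbl1*, 62 of 820 such genes (7.56%) were halved and 19 (2.32%) doubled. Among genes with a name in the table outside chromosome 6, 10 of 411 (2.43%) were halved and 19 (4.62%) doubled.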
